A study of Mus musculus and Homo sapiens with 22 samples.

Results

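The 10 genes described here are Atf4, Ddit3, Atf5, Trib3, Chac1, Ppp1r15a, Asns, Ddit4, Sesn2 and Eif4ebp1, taken by name from the 56196 genes in the RNA-seq count files, and by their upper-case human symbols in HEK293T cells. They are the stress transcription factor ATF4, genes that ATF4 is known to induce, and genes that restrain the growth kinase complex mTORC1. All 10 passed the filter on low counts, among 15731 genes that did.

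The study mapped N6-methyladenosine (m6A), a methyl mark on adenosines of mRNA, with miCLIP2, in which an m6A antibody is crosslinked to RNA with UV light and the crosslink positions are read from cDNA ends. A classifier named m6Aboost then predicted which positions were m6A. Site lists were used from wild-type (WT) mouse embryonic stem cells (mESC), from mouse heart RNA at 4 inputs, and from HEK293T, a human embryonic kidney cell line. RNA-seq was made from 3 WT and 3 Mettl3 knockout (KO) mESC libraries, where Mettl3 encodes the catalytic subunit of the m6A writer complex.

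Both mESC genotypes were lines of an earlier publication, grown with serum and LIF, and neither was treated with a stress agent. The study calls the 3 mESC libraries of each genotype in miCLIP2 biological replicates and describes the RNA-seq as being from the same samples. Whether they were separate clones or cultures was not given in the sources used here, so the p-values below measure the spread between these libraries. Ages, strains and sexes of the heart donors were not given in the sources used here. The heart inputs are called 1000, 300, 100 and 50 ng after the list names, although the sample titles give the 3 smaller inputs in ug. The mESC and HEK293T lists were each made from several replicates together and each heart list from 1 library. No list gives replicate values or read depth, so sites are described and not tested.

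In the integrated stress response, kinases that sense amino acid shortage, unfolded protein, haem shortage or double-stranded RNA phosphorylate the translation factor eIF2. General translation then falls while the ATF4 mRNA, which carries short upstream reading frames, is translated more. ATF4 pairs with other bZIP factors and switches on genes for amino acid synthesis and import, tRNA charging and, through DDIT3 (CHOP), cell death. Several of its targets also hold back mTORC1, the kinase complex that drives protein synthesis when nutrients are plentiful.

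The sites of 2 of these genes sat at the same place in the transcript, on the first base after the stop codon. In Ddit3, which encodes CHOP, and in Ddit4, which encodes the mTORC1 inhibitor REDD1, a TGA stop codon was followed by a predicted m6A in the mESC list, the 1000 ng heart list and the HEK293T list. The windows of 21 nt around these sites are shown because they carry the most regular feature of the members' sites. They were read from GRCm38 for mouse and GRCh38 for human, 5′ to 3′ on the transcript strand, and capitals mark the 5-nt motif whose middle letter is the methylated A. The first 2 capitals, with the T before them, spell the stop codon.
Ddit3 mouse, chr10:127296082-127296102, plus strand: ccaagcatGAACAgtgggcat
DDIT3 human, chr12:57516798-57516818, minus strand: ccaagcatGAACAattgggag
Ddit4 mouse, chr10:59950525-59950545, minus strand: agagtgttGAACTacatcctg
DDIT4 human, chr10:72275179-72275199, plus strand: ggagtgttGAACTtcaacctg

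Over the whole lists, that base held 74 of 25456 mESC sites (0.291%), 110 of 46421 sites in 1000 ng heart (0.237%) and 102 of 36556 HEK293T sites (0.279%). In mESC the last base of the stop codon held 75 sites, and each of the next 4 bases after the Ddit3 and Ddit4 position held 34 to 42. The m6Aboost scores, which run from 0.5 to 1, were 0.854 for Ddit3 in mESC and 0.844 for DDIT3 in HEK293T. For Ddit4 the score was 0.899 in mESC, above 90.7% of that list, and 0.962 in HEK293T, above 99.2% of that list. In 1000 ng heart the Ddit4 site ranked above 46.5% of the list and the Ddit3 site above 93.3%. The Ddit3 site was also in the 300 ng heart list.

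Ddit4 had the most sites that recurred between species. Of its 9 mESC sites, 6 fell on a base aligned with a site of HEK293T, out of 14 such mESC sites over all 10 genes. The next windows show the pairs that lie in the coding sequence, at the same distance before the stop codon in both species, and a pair in the 3′ UTR whose motif is outside the usual consensus. That consensus is DRACH, in which D stands for A, G or T, R for A or G, and H for A, C or T.
Ddit4 mouse, chr10:59950835-59950855: tgggcaagGAACTcctgcgcc
DDIT4 human, chr10:72274869-72274889: tgggcaaaGAACTactgcgcc
Ddit4 mouse, chr10:59950782-59950802: gcactgctGGACGtgtgtgtg
DDIT4 human, chr10:72274922-72274942: gcgctgctGGACGtctgcgtg
Ddit4 mouse, chr10:59950680-59950700: ctgcgtctGGACTctcgcctc
DDIT4 human, chr10:72275024-72275044: ctgcgcctGGACTcacgactc
Ddit4 mouse, chr10:59949860-59949880: gtgcccatGTACTggaggatt
DDIT4 human, chr10:72275826-72275846: cccatcgtGTACTgcagagtt

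The 3 coding pairs lay 309, 256 and 154 nt before the end of the stop codon in mouse and in human. For the pair at 154 nt, the study tested the human base in HEK293T with SELECT, a PCR assay that uses no antibody. It reported m6A there from a comparison of cells with and without a METTL3 inhibitor. The middle pair of the 3 reads GGACG, which is not DRACH because its last letter is G. It was nonetheless among the highest-ranked Ddit4 sites in heart, above 98.1% of the 1000 ng list, above 67.0% of the mESC list and above 55.0% of the HEK293T list. The GTACT pair in the 3′ UTR, 666 nt after the stop codon in mouse and 648 nt in human, ranked low, above 19.5% of the mESC list and 2.00% of the HEK293T list, and was not in any heart list. Over all members, 15 mouse sites had a HEK293T site on the aligned base. The motif was the same in both species in 13 of these pairs, and 6 pairs lay at the same distance from the stop codon. In the 14 pairs with both windows at hand, between 12 and 20 of the 21 letters were identical, with a median of 17.

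Ppp1r15a showed a different arrangement. This gene encodes GADD34, a subunit of the phosphatase that removes the phosphate from eIF2 and so ends the stress response. All of its sites lay in the coding sequence, and in heart 3 of its 5 sites had identical windows, 1 of which is shown first, while 1 more site had nearly the same letters.
Ppp1r15a mouse, chr7:45524255-45524275, minus strand: ccaggagaGGACAcagaggaa
Ppp1r15a mouse, chr7:45524027-45524047, minus strand: ccaggagaGGACAcagaagat
The identical windows were centred on positions 45524151, 45524265 and 45524496 of chromosome 7. Because these sites share a sequence, reads from the copies may be hard to place, and the counts given for Ppp1r15a hold each of them singly. The site with nearly the same letters, at 45524037, was the one Ppp1r15a site present in both the mESC and the 1000 ng heart list. The lists ranked the repeat sites low, at 3.06 to 40.9% of the 1000 ng heart list.

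The exons of the 10 genes held 49 mESC sites in 9 genes, 28 sites of 1000 ng heart in 8 genes, and 62 HEK293T sites in 10 genes. Sesn2 held 13 mESC sites, and Ddit4 and Trib3 9 each, while Atf5 held none. Among all 15731 genes tested, 42.0% had at least 1 mESC site, 3.94% had 9 or more and 1.36% had 13 or more, while 50.2% had at least 1 site in 1000 ng heart. Genes with a site had a median of 3 in mESC, 4 in 1000 ng heart and 3 in HEK293T.

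**Figure D1:**
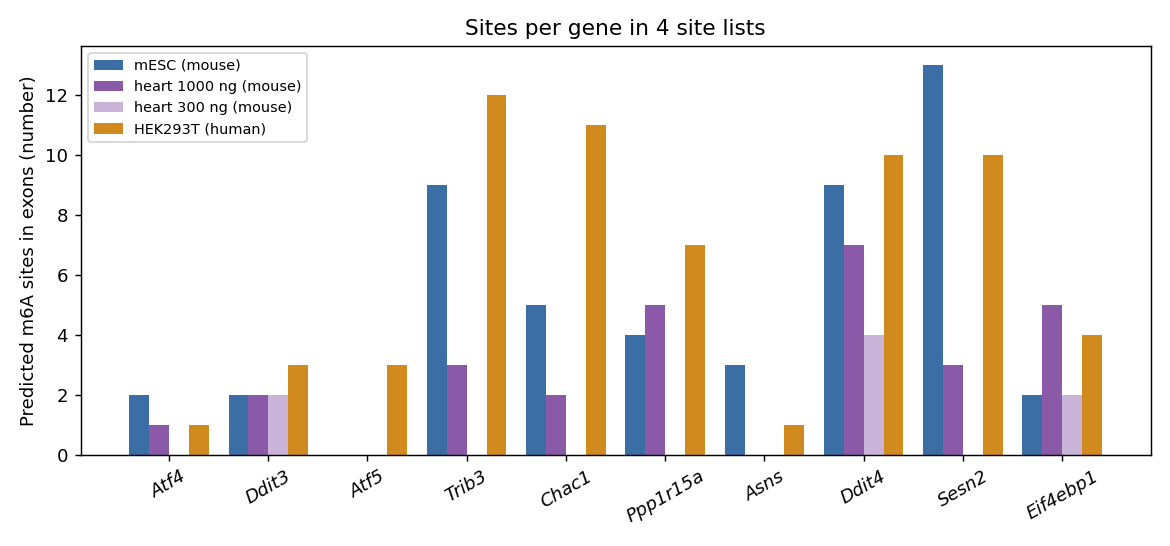
Bars give the number of predicted m6A sites in the exons of each gene, without replicates, in the mESC, 1000 ng heart, 300 ng heart and HEK293T lists. Sesn2 had 13 mESC sites and 3 sites of 1000 ng heart, whereas Eif4ebp1 had 2 and 5.

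In mESC, 1 of the 49 sites lay in a 5′ UTR, 17 in coding sequence and 31 in 3′ UTRs, and 40 lay in the last exon. In 1000 ng heart the sites were 9 in coding sequence and 19 in 3′ UTRs. HEK293T sites divided into 29 in coding sequence and 33 in 3′ UTRs. Motif and transcript region were inputs of the classifier, so these shares describe its calls. DRACH held 44 of the 49 mESC sites (89.8%, 95% Wilson interval 78.2 to 95.6, counting error only), beside 92.9% of all exonic mESC sites. In HEK293T it held 51 of 62 (82.3%, 71.0 to 89.8), beside 89.3% of all exonic sites. Over all members, 19 of the 49 mESC sites were also in the 1000 ng heart list.

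**Figure D2:**
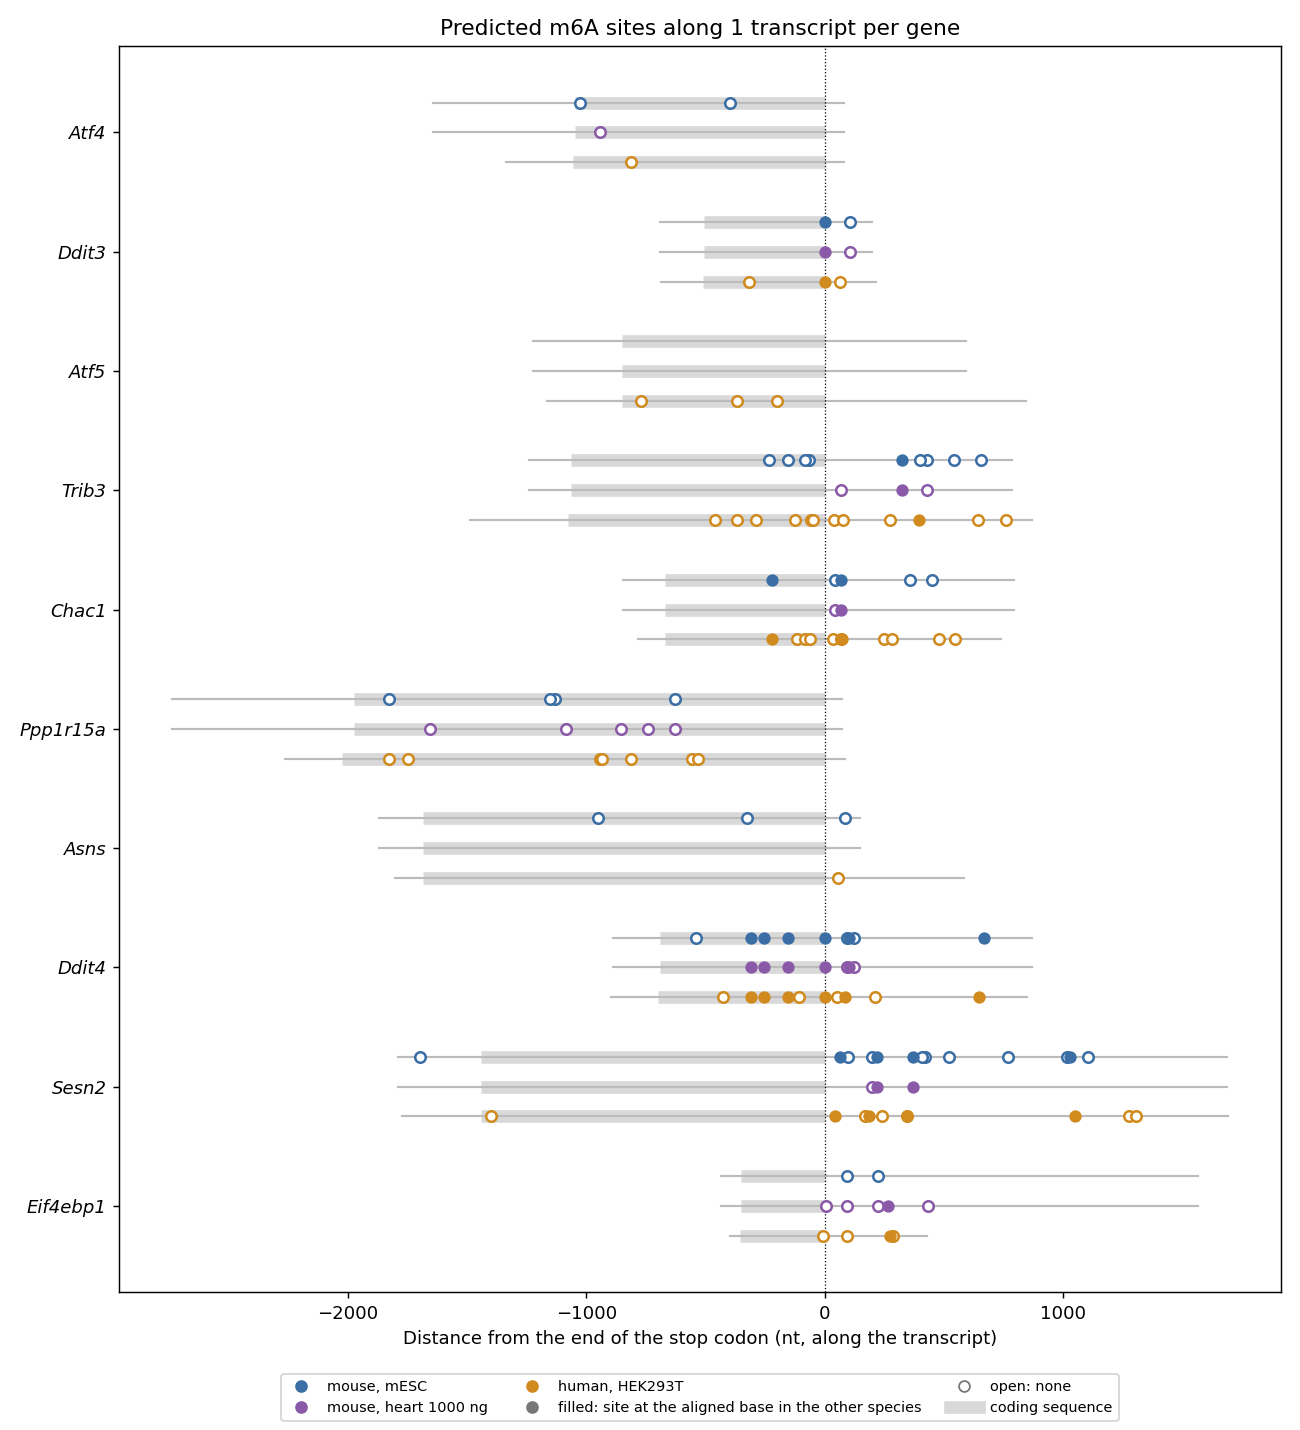
Each line is 1 transcript with its coding sequence as a grey block, and circles are predicted sites at their distance in nt from the end of the stop codon. Filled circles have a site on the aligned base in the other species, and the Ddit3 and Ddit4 rows share filled circles at 1 nt.

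Atf4 (chr15:80255184-80257541, plus strand) had 2 sites in mESC, 1 in 1000 ng heart and 1 in HEK293T. Genes with a site had medians of 3, 4 and 3 in these lists. Its 2 mESC sites lay in the coding sequence, 1027 and 400 nt before the end of the stop codon, with scores of 0.566 and 0.678. Its 1 heart site was a different coding base, 943 nt before the end of the stop codon, and the 1 HEK293T site was aligned with none of them. The 3 mouse sites faced no DRACH motif in the human transcript. The 5′ UTR, which in Atf4 holds the upstream reading frames, contained 5 DRACH motifs in the mouse transcript, and no mouse list placed a site there. The HEK293T site lay in the coding sequence of the human transcript used here. On other annotated coding transcripts it lay in a 5′ UTR or a 3′ UTR.

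Atf5 (chr7:44812256-44816658, minus strand), a bZIP factor that is also controlled by upstream reading frames, had no site in any mouse list. In HEK293T it had 3, all in coding sequence, with scores of 0.818, 0.741 and 0.531. The mouse bases aligned with these human sites were in DRACH motifs in 3 of 3 cases. No RNA-seq of heart or HEK293T was used here, so an unlisted site and a transcript too scarce to be listed cannot be told apart there.

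Trib3 (chr2:152337422-152344032, minus strand) encodes a pseudokinase that binds AKT and ATF4. All 9 of its mESC sites lay in the last exon, 4 in coding sequence and 5 in the 3′ UTR. Heart had 3 and HEK293T 12. A GGACA site 322 nt after the mouse stop codon, with a score of 0.870, was the one Trib3 site found in mESC, heart and HEK293T.

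Chac1 (chr2:119351229-119354381, plus strand) encodes an enzyme that degrades glutathione. It had 5 mESC sites, 2 heart sites that were both among them, and 11 HEK293T sites. A coding site 223 nt before the end of the stop codon was shared with human at the same distance, and 20 of 21 letters of the windows were identical. An AGACT site 69 nt after the mouse stop codon was in mESC, heart and HEK293T. Both windows of the coding pair are shown because they were the most alike of all pairs.
Chac1 mouse, chr2:119353357-119353377, plus strand: accccacaGAACCctggctac
CHAC1 human, chr15:40955541-40955561, plus strand: accccacaGAACCctggttac

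Asns (chr6:7675169-7693254, minus strand) encodes asparagine synthetase. It had 3 mESC sites, of which the highest-scoring (0.848) was a GGACT in coding sequence, and none in any heart list. The HEK293T list had 1 site in its 3′ UTR, which is also annotated to an overlapping long non-coding RNA of the same strand.

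Sesn2 (chr4:132492032-132510501, minus strand) encodes Sestrin 2, the leucine-binding inhibitor of mTORC1. Of its 13 mESC sites, 12 lay in the 3′ UTR between 65 and 1102 nt after the stop codon. The highest-scoring site of all members in mESC was here, 766 nt after the stop codon, with a score of 0.975 that exceeded 99.6% of the list, yet it was in no heart list. The other extreme was a 5′ UTR site with a score of 0.503, the lowest of the members' mESC sites and just above the classifier's limit of 0.5. Both windows are shown as these extremes.
Sesn2 mouse 3′ UTR, chr4:132492940-132492960, minus strand: ctgttggtGAACTctgtattt
Sesn2 mouse 5′ UTR, chr4:132510399-132510419, minus strand: gccactgcGGACTtccgaggc
The 3 heart sites of Sesn2 were all among its mESC sites. Of the 10 HEK293T sites, 4 were aligned with mESC sites.

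Eif4ebp1 (chr8:27260329-27276674, plus strand) encodes 4E-BP1, which binds the cap-binding factor eIF4E until mTORC1 phosphorylates it. It was the member with the most persistent heart signal. A TGACT site 221 nt after the stop codon was in the mESC list and in all 4 heart lists, and it was the only site of any member in the 100 ng and 50 ng lists, which held 1112 and 248 sites in all. The scale of the heart scores was not given in the sources used here, so they were used only as ranks. This site ranked above 99.7% of the 1000 ng list, 99.7% of the 300 ng list, 98.5% of the 100 ng list and 77.8% of the 50 ng list. The study also tested this base in WT and Mettl3 KO mESC with SELECT, a PCR assay that uses no antibody, and reported Mettl3-dependent m6A there. The site was not aligned with a HEK293T site.

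The 300 ng list held 8 sites in Ddit3, Ddit4 and Eif4ebp1, and all 8 were also in the 1000 ng and mESC lists. That list had 8845 sites in all, against 46421 at 1000 ng.

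The 6 RNA-seq libraries had between 22746733 and 27254245 reads counted on genes. Mettl3 itself was at 26.4, 26.6 and 28.9 CPM (read counts scaled to a common library size) in WT libraries 1 to 3 and at 18.4, 22.6 and 16.9 in KO. All KO values were below all WT values, but the transcript remained (log2 fold change −0.50 ± 0.14 SE, edgeR adjusted p = 0.0134). Pluripotency markers summed to 4716 to 4982 CPM in WT and 3523 to 3560 CPM in KO, with Tdgf1, Dppa5a and Utf1 called lower among 10. The other 7 were not called, among them Pou5f1 (−0.26), Nanog (−0.07) and Sox2 (0.01). With the replicate block described below, Esrrb, singled out after its value was seen, was called higher (0.43, edgeR adjusted p = 0.00191). The 12 fibroblast markers were checked because such cells can serve as feeders. For its RT-PCR, the study grew the mESC on irradiated fibroblasts and took RNA after depleting these feeders. Whether the RNA-seq cells were handled likewise was not given in the sources used here. The 12 markers summed to 14.8 to 21.8 CPM in WT and 21.6 to 30.97 in KO. Of these markers 8, Col1a1 among them, were under 100 counts in every library, and none was at 0 in all libraries. Thy1 was called higher and Pdgfrb lower without the replicate block described below, and with it 4 were called higher (Thy1 and, named after their values were seen, Loxl1, Fbln2 and Tagln) and 1 lower. The part of such cells in the results was not tested. The 10 cardiomyocyte markers had no mESC site, while 6 had 40 sites in 1000 ng heart. The 12 fibroblast markers also had no mESC site, and 11 of them had 66 sites in 1000 ng heart. Of the 10 pluripotency markers, 8 had sites in mESC and 2 in 1000 ng heart.

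The RNA of the 10 genes spanned a wide range in WT. Per kilobase of exon (FPKM, mean ± SD, n = 3), Asns was the most abundant at 255 ± 44.4. Eif4ebp1 (164 ± 31.8), Ddit4 (142 ± 59.9) and Atf4 (128 ± 14.2) followed, with differences within their spreads. Sesn2 stood at 29.6 ± 2.15, then Chac1 (20.4 ± 12.1) and Trib3 (19.7 ± 7.38), which did not differ beyond their spread. The lowest levels were those of Ppp1r15a (10.8 ± 1.70), Ddit3 (9.26 ± 2.52) and Atf5 (7.61 ± 0.84), again with neighbours overlapping. The level and rank of Ddit3 may be understated, because reads on exons shared with a second Ddit3 entry, described below, count for neither entry. Atf4 and Asns exceeded 98.4% and 99.1% of all genes tested on this scale.

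**Figure D3:**
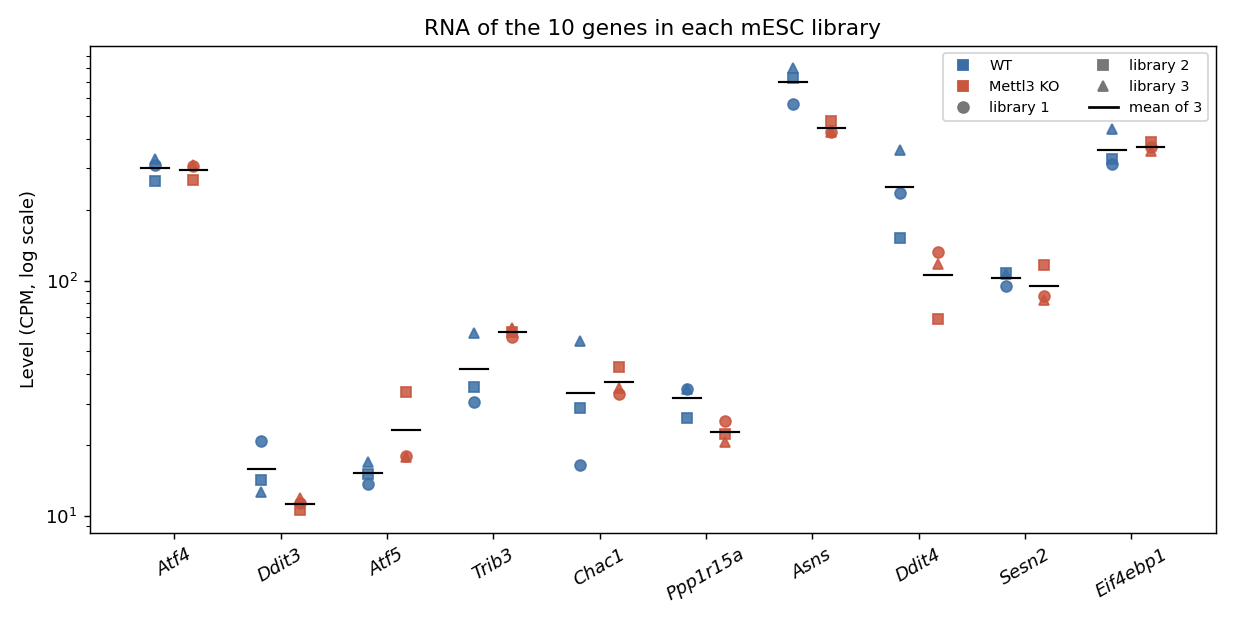
Points are the level of each gene in CPM (log scale) in the WT and Mettl3 KO libraries, with the replicate number as the symbol and the mean of 3 as a bar. Ddit4 and Asns were lower in all KO libraries than in all WT libraries, and Atf4 overlapped.

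Ddit4 and Asns were lower in KO, and Atf4 was not called. The edgeR quasi-likelihood test, with a limit of 0.01 on the adjusted p, called 2 of the 10 genes, both lower in KO, against 29.7% of all genes tested in either direction, 12.6% lower and 17.1% higher. KO and WT ranges did not overlap in 5 of the 10 genes, 4 lower and 1 higher, against 56.1% of all genes, 26.9% lower and 29.2% higher. The median log2 fold change was −0.07 for the 10 genes and −0.02 for all genes tested. When the replicate number was a block, which these libraries allowed because same-numbered libraries deviated together, 5 of the 10 genes were called, 3 lower and 2 higher, against 43.5% of all genes, 20% lower and 23.5% higher.

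Ddit4 was at 235, 152 and 361 CPM in WT libraries 1 to 3 and at 132, 68.4 and 118 CPM in KO. Every KO value was below every WT value, although WT levels differed 2.38-fold among themselves. WT exceeded KO 2.35-fold (log2 fold change −1.23 ± 0.30 SE, edgeR adjusted p = 0.00778). With the replicate block the change was −1.20 ± 0.12 SE (adjusted p = 3.96e-07), and KO was lower at each of the 3 replicate numbers. The call without the block rested on few libraries, because leaving out any library but WT 2 raised the adjusted p to between 0.0128 and 0.0276, and DESeq2 gave 0.0134.

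Asns was at 564, 730 and 801 CPM in WT and at 428, 477 and 428 CPM in KO. The KO libraries lay close together and below all WT libraries. WT exceeded KO 1.57-fold (log2 fold change −0.65 ± 0.14 SE, edgeR adjusted p = 0.00415). With the block the adjusted p was 0.000118, whereas without KO 1 or KO 3 it rose to 0.0262 and 0.0225, and with scaling by library size alone to 0.0175.

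The other 2 genes with KO below WT throughout missed the threshold without the block. Ppp1r15a was at 34.6, 25.97 and 34.7 CPM in WT and at 25.4, 22.3 and 20.5 in KO (log2 fold change −0.48 ± 0.15 SE, edgeR adjusted p = 0.0217, with the block 0.00366). Ddit3 was at 20.8, 14.2 and 12.7 CPM in WT and at 11.3, 10.53 and 11.9 in KO (−0.50 ± 0.19 SE, adjusted p = 0.0554, with the block 0.0180). A second annotated Ddit3 entry on the same strand had no counts, and under the counter's default a read on a shared exon counts for neither entry.

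Atf5 and Trib3 were the members with higher means in KO that the block called. Atf5 was at 13.6, 15.0 and 16.9 CPM in WT and at 17.9, 33.6 and 17.8 in KO, where KO 2 stood apart from the other two (log2 fold change 0.61 ± 0.24 SE, edgeR adjusted p = 0.0562, with the block 0.00912). Without KO 2 the log2 fold change was 0.24. Trib3 was at 30.6, 35.4 and 59.8 CPM in WT and at 57.6, 60.4 and 63.1 in KO, so that only WT 3 reached the KO range (0.53 ± 0.21 SE, adjusted p = 0.0620, with the block 0.00136). Without WT 3 it was 0.87 with an adjusted p of 0.000188.

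Atf4, Eif4ebp1, Sesn2 and Chac1 were not called with or without the block. Atf4 was at 310, 264 and 329 CPM in WT and at 307, 269 and 310 in KO, nearly the same value at each replicate number (log2 fold change −0.03 ± 0.12 SE, edgeR adjusted p = 0.866). Eif4ebp1 was at 312, 330 and 440 CPM in WT and at 369, 388 and 357 in KO (0.04 ± 0.14 SE, adjusted p = 0.822). It lies on chromosome 8, where the median over 829 genes was −0.44 on the log2 scale. Sesn2 was at 94.4, 108 and 107 CPM in WT and at 86.0, 116 and 82.3 in KO (−0.12 ± 0.14 SE, adjusted p = 0.514). Chac1 varied most among WT libraries, at 16.4, 28.6 and 55.1 CPM, and was at 32.99, 42.7 and 35.1 in KO (0.15 ± 0.33 SE, adjusted p = 0.739). Its log2 fold change was −0.18 without WT 1 and 0.71 without WT 3.

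**Figure D4:**
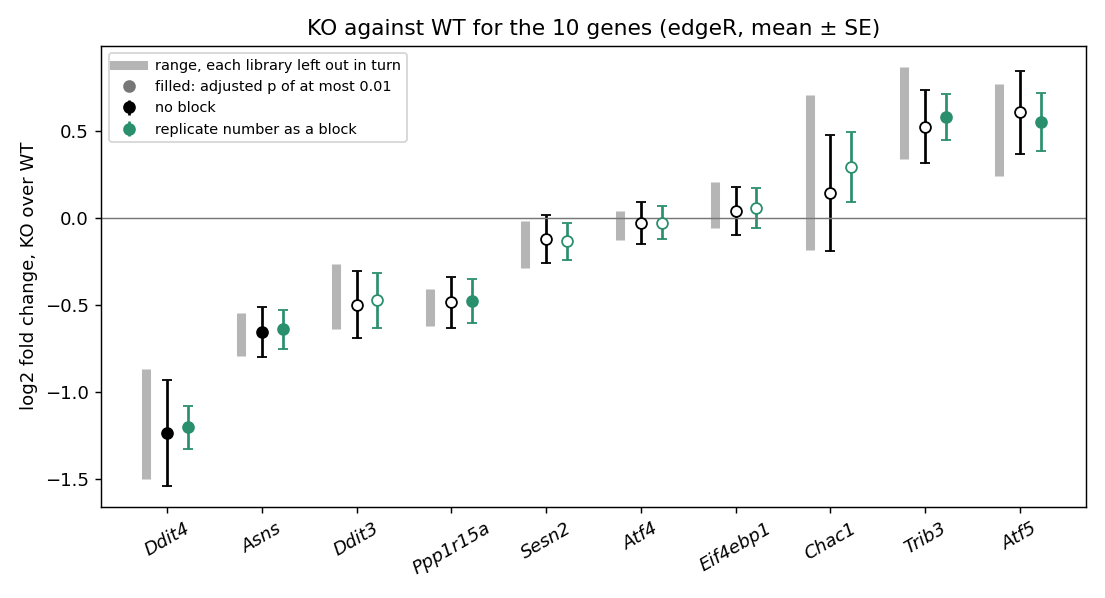
Points are log2 fold changes of KO over WT with SE from edgeR, without (black) and with (green) the replicate number as a block, filled where the adjusted p was at most 0.01. Grey bars span the 6 fits that each left out 1 library, and those of Chac1, Eif4ebp1 and Atf4 cross 0.

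The number of sites did not order the members by their change. Ddit4 and Trib3 had 9 mESC sites each, and their log2 fold changes were −1.23 and 0.53. Sesn2 had 13 sites and a value of −0.12, while Atf5 had no site and a value of 0.61. These are descriptions of 4 of the 10 genes, with no test, and of the 4 only Ddit4 was called without the block.

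By the rule for likeness, the 3 genes closest to Atf4 across the 6 libraries were Asic1, Egln3 and Lonp1, with Pearson correlations of 0.996, 0.996 and 0.992 in log2 CPM. The libraries of both groups entered, and the highest of many correlations over 6 points is high by selection. Like Atf4, they were lowest in the libraries numbered 2. Egln3, a hydroxylase of the oxygen-sensing pathway, was at 75.0, 37.6 and 103 CPM in WT and at 72.0, 43.7 and 78.5 in KO. Lonp1, the mitochondrial protease, was at 203, 169 and 215 CPM in WT and at 197, 166 and 203 in KO.

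The wider pathway was read from 7 lists holding 98 genes tested. Their counts stand beside 12.6% of all genes called lower and 17.1% called higher without the block. Without the block, genes of the sensing arm that were called were all lower in KO. Of 15 tested genes for the eIF2 kinases and the eIF2 pathway, 5 were called lower and none higher, with a median log2 fold change of −0.32. With the block, 8 were called lower and Eif2b1, singled out after its value was seen, higher (0.36, edgeR adjusted p = 0.00696). Among the kinases, Eif2ak3 (PERK, which senses unfolded protein) was called lower (−0.42 ± 0.10 SE, edgeR adjusted p = 0.00775). That call held in 4 of 14 alternatives, with an adjusted p of up to 0.0452. The 4 include the same fit at a limit of 0.05, where the call could not be lost. Eif2ak4 (GCN2, which senses uncharged tRNA) was at 0.29 ± 0.10, Eif2ak1 at −0.19 ± 0.16 and Eif2ak2 at 0.03 ± 0.12, and none of these was called. Eif2s2, the beta subunit of eIF2, was lower at −0.95 ± 0.14 (adjusted p = 0.000516). For eIF2B, the exchange factor that reloads eIF2 with GTP, Eif2b4 was called at −0.76 ± 0.16, together with Eif2b3 (−0.51) and Eif2b5 (−0.62), which were singled out after their values were seen. Without the block, Eif2b1 (0.35) and Eif2b2 (−0.08) were not called.

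In the list of ATF4 partners and other stress bZIP factors, 10 genes were tested. Of these, 5 were called higher, 1 lower and 4 were not called, with a median log2 fold change of 0.70. The list is named by its bZIP factors for short, although its member Nupr1 is not one. Without KO 1, 2 were called higher and none lower, and without replicate 2 of both groups 1 was called higher and 1 lower. Cebpb, a C/EBP factor that can pair with ATF4, was called higher from a low level (1.79, 2.21 and 2.88 CPM in WT and 5.93, 7.83 and 4.91 in KO, log2 fold change 1.44 ± 0.27 SE, edgeR adjusted p = 0.00172). Jun, an AP-1 subunit, was higher at 1.16 ± 0.26 (adjusted p = 0.00473). Nupr1, a small stress-induced chromatin protein, was the one called lower (−0.59 ± 0.13, adjusted p = 0.00401), so no bZIP factor of the list was called lower in this fit.

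Without the block, the 4 groups of ATF4 target and endoplasmic reticulum genes contained no gene called higher. With the block, Aldh18a1 of the one-carbon list (0.33, edgeR adjusted p = 0.00919) and Hspa5 of the endoplasmic reticulum list (0.41, adjusted p = 0.00204) were called higher, both singled out after their values were seen. Of 12 aminoacyl tRNA synthetases, which charge tRNAs with amino acids, 7 were called lower, with a median of −0.52. Gars was at 559, 619 and 748 CPM in WT and at 333, 353 and 346 in KO (log2 fold change −0.90 ± 0.13 SE, edgeR adjusted p = 0.000379), and Lars was lower at −0.74 ± 0.16 (adjusted p = 0.00358). Of 12 genes in the list of serine, glycine and one-carbon enzymes, 3 were called lower, beside 12.6% of all genes, with a median of −0.46. This list, called one-carbon for short, also holds enzymes of other amino acids, among them Aldh18a1, Pycr1, Cth, Gpt2 and Got1. Aldh1l2, a mitochondrial folate enzyme, fell furthest of the called genes in this list, from 11.2, 12.6 and 27.6 CPM in WT to 2.99, 6.21 and 5.28 in KO (−1.82 ± 0.36, adjusted p = 0.00259). Phgdh, the first enzyme of serine synthesis, was lower at −0.77 ± 0.15 (adjusted p = 0.00216).

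Of 10 amino acid transporters, 3 were called lower, beside 12.6% of all genes, with a median of −0.43. Slc7a1, a cationic amino acid carrier, was lower at −0.73 ± 0.18 SE (edgeR adjusted p = 0.00833) and Slc7a5, the leucine carrier of system L, at −0.64 ± 0.16 (adjusted p = 0.00958). Slc7a5 and, in the next list, Herpud1 lie on chromosome 8, where the median log2 fold change was −0.44 and 34.6% of 829 genes were called lower, and the part of that shift in their values was not tested. Aars and Calr, called lower among the tRNA synthetases and the endoplasmic reticulum genes and named after their values were seen, lie there too. The 3 transporter calls were lost with scaling by library size alone, with a minimum of 10 counts in every library, and without WT 1, KO 1 or KO 3. With any of the other libraries left out, 1 transporter call remained. Of 16 genes of the endoplasmic reticulum chaperones and the ATF6 and XBP1 branches, 6 were called lower, with a median of −0.33. Herpud1, which acts in degradation of misfolded proteins, was at 42.3, 41.1 and 53.1 CPM in WT and at 19.0, 20.6 and 17.5 in KO (−1.26 ± 0.14, adjusted p = 8.1e-05). Xbp1, the transcription factor of the IRE1 branch, was lower at −1.09 ± 0.12 (adjusted p = 9.45e-05).

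With the block, 9 of 12 tRNA synthetases, 8 of 12 genes of the one-carbon list and 5 of 10 transporters were called lower. So were 8 of 16 endoplasmic reticulum genes and 8 of 15 eIF2 pathway genes, against 20% of all genes. The block also gave 1 gene called higher in each of the one-carbon, endoplasmic reticulum and eIF2 lists. It gave none in the other 2, against 23.5% of all genes. Without KO 1, the counts called lower in these lists without the block fell to 1, 0, 0, 3 and 1.

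In the mTORC1 list, 23 of 25 genes were tested, 2 were called higher and 6 lower, beside 17.1% and 12.6% of all genes, with a median of −0.17. Rps6kb2 was listed at 0 counts in every library, as was Ppp1ca of the eIF2 list, and Eif4ebp3 did not pass the filter. Whether these 0 counts reflect absent RNA or reads that were not assigned to the gene was not tested. Rragc, a GTPase that recruits mTORC1 to the lysosome, was at 45.5, 42.7 and 38.7 CPM in WT and at 102, 81.7 and 83.2 in KO (log2 fold change 1.07 ± 0.12 SE, edgeR adjusted p = 0.000107). Sesn3, a paralogue of Sesn2, was higher at 0.65 ± 0.13 (adjusted p = 0.00257), while Sesn1 was at 0.38 ± 0.14 and was not called. Deptor, an inhibitory mTOR partner, was lower (−0.95 ± 0.10, adjusted p = 9.1e-05). Nprl3, a subunit of the GATOR1 complex that turns mTORC1 off when amino acids are short, was lower at −0.96 ± 0.22 (adjusted p = 0.00524). The other 2 subunits of GATOR1, Nprl2 (−0.67) and Depdc5 (−0.60), were also called lower, and they were singled out after their values were seen. So were Mlst8 (−0.53) and Eif4e (−0.50), which complete the 6 called lower. Eif4e encodes the cap-binding factor that 4E-BP1 binds, so the genes called lower were not all inhibitors of mTORC1.

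**Figure D5:**
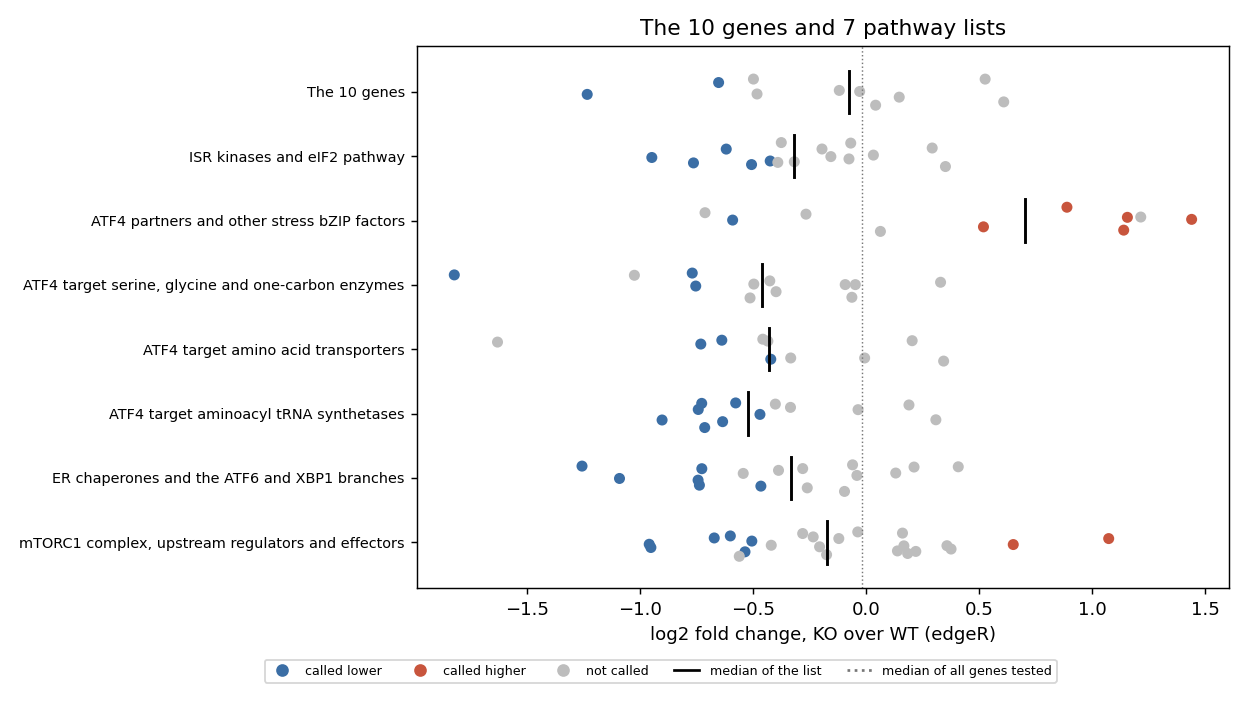
Points are the log2 fold changes of KO over WT from edgeR for each gene tested in the 10 genes and the 7 lists, coloured by call at an adjusted p of at most 0.01, with list medians as black bars. The bZIP list had a median of 0.70 and the tRNA synthetases of −0.52, around the −0.02 of all genes.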

How the data were processed

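RNA-seq of 3 WT and 3 Mettl3 KO mESC libraries was deposited by the authors as raw read counts per gene. Per the study's methods, reads were aligned to GRCm38.p6 with STAR 2.6.1b and counted with HTSeq 0.12.4 in reverse-stranded mode. Between 36.7 and 42.7% of entries named no gene and were left out. KO was compared with WT by the quasi-likelihood test of edgeR 4.0.16 (R 4.3.3), after its filterByExpr filter and TMM scaling, with Benjamini-Hochberg adjustment over all genes tested and calls at 0.01 or less. DESeq2 1.42.0, other scalings and filters, a replicate block and left-out libraries were alternatives. The script was tested on simulated data. Same-numbered WT and KO libraries deviated together from their group means (r = 0.224, 0.554 and 0.443 over 10854 genes). Differently numbered libraries ranged from −0.458 to 0.107, the highest being WT 3 with KO 1, so the pairing was weakest for number 1. The replicate numbers were thus taken as pairs on the evidence of the data, since the labels do not say what a number marks. Libraries of a group differed by more than sampling noise.

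Site lists were deposited by the authors as m6Aboost predictions with 1 score per site, over replicates together for mESC and HEK293T and from 1 library for each heart input, from reads aligned with STAR 2.7.3a and deduplicated with UMI-tools 1.0.0. Sites were placed on exons of GENCODE annotations on the same builds, which are other releases than the authors used, and on 1 coding transcript per gene. Mouse and human transcripts were aligned with MAFFT. Single-sample signal tracks were not used here. CPM used TMM-scaled library sizes and FPKM divided CPM by exon length.

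Named genes were the 10 members, Mettl3, the 4 eIF2 kinases, the 3 genes most correlated with Atf4, and, per list, up to 2 highest and 2 lowest called genes, provided that they averaged 100 counts or more and that KO and WT did not overlap. The members and lists were chosen with earlier results of these data known.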

Additional observations from a re-analysis of the deposited data

How the results depend on the processing

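Of 15731 genes tested, 4669 were called, against 7336 at an adjusted p of 0.05, 6837 with the replicate block, 2761 to 5412 with 1 library left out, and 3042 without replicate 2 of both groups, a setting chosen after seeing the data. With library size as the sole scaling, the median over all genes went from −0.02 to 0.08 (log2), and 71.0% of calls were higher in place of 57.6%.

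Among the 10 members, the 2 calls became 1 with DESeq2, with at least 10 counts in every library, with library size alone and without replicate 2 of both groups, 4 without the low-count filter, 5 with the replicate block, and 0 to 3 with 1 library left out. Ddit4 and Asns kept a negative sign in all 14 alternatives and were called in 7 and 10 of them. These include the same fit at an adjusted p of 0.05, where neither sign nor call could be lost. Signs that reversed were those of values not called. The log2 fold change of Atf4 was 0.0817 with library size alone, 0.00758 without the low-count filter, and −0.123 (without WT 2) to 0.0421 (without KO 2) over the fits that left out 1 library. That of Chac1 was −0.0791 without replicate 2 of both groups and −0.183 (without WT 1) to 0.708 (without WT 3) over those fits. That of Eif4ebp1 was −0.0627 without replicate 2 of both groups and −0.0567 (without WT 1) to 0.212 (without WT 3) over those fits.

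For the eIF2 pathway the 5 calls became 3 with at least 10 counts or library size alone, 9 with the replicate block, 2 without replicate 2 of both groups, and 1 to 4 with 1 library left out. The 6 bZIP calls became 2 without replicate 2 of both groups and 2 to 6 with 1 library left out. The 3 one-carbon calls became 5 with DESeq2, 8 at an adjusted p of 0.05, 6 without the low-count filter, 9 with the replicate block and 0 to 4 with 1 library left out. The 3 transporter calls became 0 with at least 10 counts or library size alone, 5 with the replicate block and 0 to 1 with 1 library left out. The 7 tRNA synthetase calls became 4 with library size alone and 1 to 7 with 1 library left out. The 6 calls among endoplasmic reticulum genes became 3 to 7 with 1 library left out. The 8 mTORC1 calls became 4 with library size alone, 4 without replicate 2 of both groups and 3 to 8 with 1 library left out. The libraries whose removal moved a count by over 1.5 times were KO 1, KO 3 and WT 1 for all genes, KO 1, KO 2, KO 3 and WT 1 for the eIF2 pathway and for mTORC1, KO 1, KO 3 and WT 2 for the bZIP factors, KO 1 and KO 2 for the one-carbon enzymes, each of the 6 for the transporters, KO 1 and KO 3 for the tRNA synthetases, and KO 1, KO 2 and WT 1 for the endoplasmic reticulum genes. Fits with 1 library left out have fewer samples, and the other causes were not tested. The replicate block moved no other count of the 7 pathway lists by over 1.5 times. The 2 calls among fibroblast markers became 5 with it.

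Sites at or above the median score of their list numbered 29 in mESC, 13 in heart and 41 in HEK293T. In heart, RRACH (R in place of D) held 82.1% of the members' sites against 96.4% for DRACH. With any coding transcript, 4 HEK293T sites could also lie in a 5′ UTR, against 0 on the chosen transcripts. The other site counts did not change by over 1.5 times. The lists give no read depth, so a site that is not listed may be unmethylated or too thinly covered.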
